A study of Homo sapiens with 12 samples.

Results

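The long non-coding RNAs described here were 1341 of the 38716 gene symbols in the tables. A symbol was a member when it held 60 or more reads in the non-coding and long intergenic read classes, summed over the 6 RNA-seq libraries, and no coding sequence (CDS) read in any of the 12 libraries. Small nucleolar, Cajal body and U RNAs, symbols of MIR and digits only, the SNHG family, GAS5 and ZFAS1 were left out by name, which removed 52 symbols that held enough reads. The members were chosen by their RNA-seq read sum over both states, so the rule did not use the difference between the states, and the levels themselves are given as a description. Just inside the threshold lay ZNF32-AS2 with 60 reads, and just outside it LINC01531 with 59.5.

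The libraries came from IMR90, a widely used line of normal fetal human lung fibroblasts that stop dividing after enough passages. Proliferating cells (Pro) were compared with cells that had been passaged until replicative exhaustion and were senescent (Sen). Each state had 3 independently grown replicates, and each lysate gave 1 RNA-seq library of poly(A)-enriched RNA and 1 Ribo-seq library of ribosome-protected fragments, 12 libraries in all. Both states share the cell line, the medium and the cycloheximide in the lysis buffer. The labels mention 2 isolates of IMR90 but assign no sample to either, so whether the states differ in isolate is not known. The comparison asks which non-coding transcripts differ in level between dividing and senescent fibroblasts, and whether any of their reads appear among ribosome-protected fragments.

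Long non-coding RNAs are transcripts without a long open reading frame. Many are spliced and polyadenylated like mRNAs, some stay in the nucleus as scaffolds of nuclear bodies or as partners of chromatin proteins, and others act in the cytoplasm by binding RNA-binding proteins or microRNAs. Many are made from the strand opposite a coding gene or from the same promoter in the other direction, so that they share DNA with a coding gene. In senescent fibroblasts several have been tied to the INK4 locus, the p53 pathway and the secretory programme.

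Promoter sequence is shown for 8 members that the results return to: 5 whose level was higher in senescent cells, 2 whose level was lower and TUG1, whose RNA level was not called different. Each window runs from 250 bases before to 50 bases after the transcription start, taken from RefSeq on GRCh38.p14, at the first start listed for the gene. RefSeq lists 4 starts for LINC-PINT and 1 for each of the others. Capitals mark matches, on either strand, to the TATA box as TATAAA, the CAAT box as CCAAT, the GC box as GGGCGG, the cyclic AMP response element as TGACGTCA, the AP-1 motif as TGANTCA, the E2F motif as TTTGGCGC or as TTTCGCGC, and the E-box as CACGTG.
CYTOR, chr2:87455177-87455476, plus strand: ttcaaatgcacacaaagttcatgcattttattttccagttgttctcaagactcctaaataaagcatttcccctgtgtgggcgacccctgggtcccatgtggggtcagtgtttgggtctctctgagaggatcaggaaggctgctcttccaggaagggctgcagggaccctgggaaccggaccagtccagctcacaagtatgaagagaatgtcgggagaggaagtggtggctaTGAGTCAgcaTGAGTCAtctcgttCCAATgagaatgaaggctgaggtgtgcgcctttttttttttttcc
MIR4435-2HG, chr2:111495112-111495411, minus strand: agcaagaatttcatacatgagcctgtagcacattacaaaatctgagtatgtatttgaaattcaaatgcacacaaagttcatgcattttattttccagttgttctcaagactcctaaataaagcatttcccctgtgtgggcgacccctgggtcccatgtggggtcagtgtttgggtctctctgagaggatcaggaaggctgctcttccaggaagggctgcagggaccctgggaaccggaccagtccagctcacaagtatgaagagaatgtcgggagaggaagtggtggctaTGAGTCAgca
LUCAT1, chr5:91314353-91314652, minus strand: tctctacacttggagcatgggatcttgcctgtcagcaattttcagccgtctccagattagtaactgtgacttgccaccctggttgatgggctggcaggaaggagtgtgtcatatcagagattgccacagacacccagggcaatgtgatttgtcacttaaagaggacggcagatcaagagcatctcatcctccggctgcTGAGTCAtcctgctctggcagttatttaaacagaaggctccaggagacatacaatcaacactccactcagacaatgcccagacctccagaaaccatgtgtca
LINC-PINT, chr7:130913261-130913560, minus strand: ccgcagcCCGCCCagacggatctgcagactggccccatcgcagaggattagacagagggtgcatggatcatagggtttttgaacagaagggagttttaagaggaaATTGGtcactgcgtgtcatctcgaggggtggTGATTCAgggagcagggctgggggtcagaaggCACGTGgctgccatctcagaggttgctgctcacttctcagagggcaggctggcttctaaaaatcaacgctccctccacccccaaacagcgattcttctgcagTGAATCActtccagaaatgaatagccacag
MIR31HG, chr9:21559749-21560048, minus strand: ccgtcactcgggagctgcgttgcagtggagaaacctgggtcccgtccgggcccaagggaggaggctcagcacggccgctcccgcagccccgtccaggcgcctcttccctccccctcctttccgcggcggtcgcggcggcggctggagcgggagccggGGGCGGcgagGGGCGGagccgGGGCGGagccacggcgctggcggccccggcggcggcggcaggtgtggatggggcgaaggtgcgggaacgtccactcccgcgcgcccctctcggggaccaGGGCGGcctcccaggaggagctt
MIR155HG, chr21:25561895-25562194, plus strand: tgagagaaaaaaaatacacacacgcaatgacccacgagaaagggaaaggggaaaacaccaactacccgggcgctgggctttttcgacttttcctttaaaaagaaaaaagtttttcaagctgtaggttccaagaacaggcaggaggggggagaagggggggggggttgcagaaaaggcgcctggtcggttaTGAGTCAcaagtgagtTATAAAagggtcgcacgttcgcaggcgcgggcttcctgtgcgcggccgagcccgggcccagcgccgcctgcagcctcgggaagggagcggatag
LINC01133, chr1:159960974-159961273, plus strand: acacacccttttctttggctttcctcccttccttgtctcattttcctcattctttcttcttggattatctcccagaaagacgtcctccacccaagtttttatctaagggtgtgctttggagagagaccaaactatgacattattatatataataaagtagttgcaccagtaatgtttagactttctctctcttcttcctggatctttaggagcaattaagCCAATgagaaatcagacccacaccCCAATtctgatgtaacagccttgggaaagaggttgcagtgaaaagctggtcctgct
TUG1, chr22:30969015-30969314, plus strand: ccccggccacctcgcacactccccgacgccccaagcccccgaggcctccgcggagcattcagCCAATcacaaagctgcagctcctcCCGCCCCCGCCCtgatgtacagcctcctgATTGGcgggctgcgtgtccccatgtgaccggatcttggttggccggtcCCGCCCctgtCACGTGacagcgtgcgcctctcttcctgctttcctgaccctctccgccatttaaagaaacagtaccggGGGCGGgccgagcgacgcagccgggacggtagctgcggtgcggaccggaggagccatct

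The windows of CYTOR and MIR4435-2HG shared an identical run of 241 bases, which lay from base -250 to -10 of the CYTOR window and from base -191 to 50 of the MIR4435-2HG window. TGANTCA was found in 5 of these 8 windows: 2 matches each in CYTOR and LINC-PINT and 1 each in MIR4435-2HG, LUCAT1 and MIR155HG. The windows therefore held this motif on both sides of the comparison, since MIR155HG was lower in senescent cells. MIR31HG had 4 GGGCGG boxes and a GC content of 77.7%, while LINC01133 had 2 CCAAT boxes and a GC content of 41.3%. A RefSeq window was matched for 826 members. Among them TGANTCA was present in 38 of 284 members called higher (13.4%), 14 of 192 called lower (7.29%) and 21 of 338 not called (6.21%), against 7.76% of all 27305 windows. CCAAT was present in 29.2% of the members called higher and 40.1% of those called lower, against 35.7% of all windows. No window shown held TGACGTCA, TTTGGCGC or TTTCGCGC, none of the motifs contains another, and these shares describe only the letters in the windows.

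By symbol, the members were 653 uncharacterised LOC loci, 344 antisense RNAs named after a coding gene, 137 LINC loci, 15 microRNA host genes, 5 intronic or overlapping transcripts and 187 others. After the symbols had been seen, the 187 others were divided further into 48 readthrough loci that join neighbouring coding genes, 28 divergent transcripts, 7 small RNA components of ribonucleoprotein particles and 104 other named RNAs. The label is therefore only partly met: the readthrough loci contain coding exons, and RMRP, RPPH1, RN7SK, RN7SL1, RN7SL2, RN7SL3 and BCYRN1 are short and largely made by RNA polymerase III. Of 1201 members matched in RefSeq, 719 had a gene span that overlaps a protein-coding gene. Of 583 matched by symbol in GENCODE on GRCh37, 33 were typed as protein coding, among them 30 readthrough loci, TUG1 and KANTR, and 364 had at least 1 exon overlapping a coding gene's exon, on the opposite strand in 324 of them. Results are also given for the 219 members without such an overlap.

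The RNA-seq libraries held from 8185913 to 14609159.5 assigned reads, a read being divided where it was assigned to several symbols, of which the members took from 1.53% to 1.58%. The Ribo-seq libraries were far less even: proliferating replicate 1 and senescent replicate 2 held 54420.5 and 54708 CDS reads, against 583798 to 1718521 in the other 4. Levels are given as CPM, counts scaled to the size of each library with TMM factors. The fibroblast markers summed to 26110 to 31515 CPM in the RNA-seq libraries, and the 5 epithelial markers to 0.554 to 1.77 CPM, with ESRP1 at 0. The leukocyte markers summed to 0.462 to 0.600 CPM in proliferating and 1.14 to 1.52 CPM in senescent cells, each below 1 CPM, with CD3E at 0. The endothelial markers summed to 53.6 to 61.9 CPM in proliferating and 91.5 to 104 CPM in senescent cells, with 4 of the 5 below 1 CPM in all libraries and CDH5 at 0. The part of other cell types in the results was not tested. In bulk samples, fewer cells that express an RNA and less of it per cell cannot be told apart. Of the senescence markers, CDKN1A and CDKN2A mRNAs were called higher and HMGB1, LMNB1, MKI67 and CCNB1 lower in the senescent RNA-seq libraries.

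Reads on opposite strands did not appear to be separated in the RNA-seq tables. TALAM1, which is transcribed against MALAT1, held from 82.5% to 107% of the reads of MALAT1 in the 6 RNA-seq libraries. In Ribo-seq, TALAM1 held 0 reads in all 6 libraries while MALAT1 held 14 to 149. VIM-AS1, which lies opposite the vimentin gene with 30.9% of its exonic bases in coding exons, held 9017 to 18193 reads in RNA-seq and 0 to 2 in Ribo-seq. In RNA-seq, reads of an antisense member and of a coding gene that shares its exons cannot be told apart, and each level of such a member below carries that limit.

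RNA-seq levels differed between the states for 770 of the 1322 members tested, or 58.2%, with 462 higher and 308 lower in senescent cells (edgeR quasi-likelihood test, adjusted p under 0.15, the study's false discovery rate). Over all 14220 symbols tested the share called was 71.8%, with 35.4% higher and 36.5% lower, and over the symbols with CDS reads it was 73.3%. The share of members called lay below both. Their median log2 fold change was 0.10, against -0.01 over all symbols tested. The CPM of the 3 senescent and the 3 proliferating libraries did not overlap for 652 members (49.3%), against 66.1% of all symbols. Of the calls, 239 exceeded a log2 fold change of 1 in size.

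The share called was greater at higher read counts, both for members and for coding symbols. With 10 to 30 reads per library on average, 51.4% of 650 members and 63.2% of coding symbols were called. With 300 to 1000 reads the shares were 77.6% of 58 members and 74.8% of coding symbols, and above 1000 reads 87.5% of 32 members and 82.3%. The median standard error of the log2 fold change was 0.227 for the members and 0.0989 for the coding symbols. The filter on low counts also bears on these numbers: 956 members reached the filter level in all 3 libraries of both states, 190 only in those of the senescent and 119 only in those of the proliferating state, and 19 members were not tested. A member that passed through a single state had to differ, so counts over the members that passed are not offered as support for a direction.

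**Figure D1:**
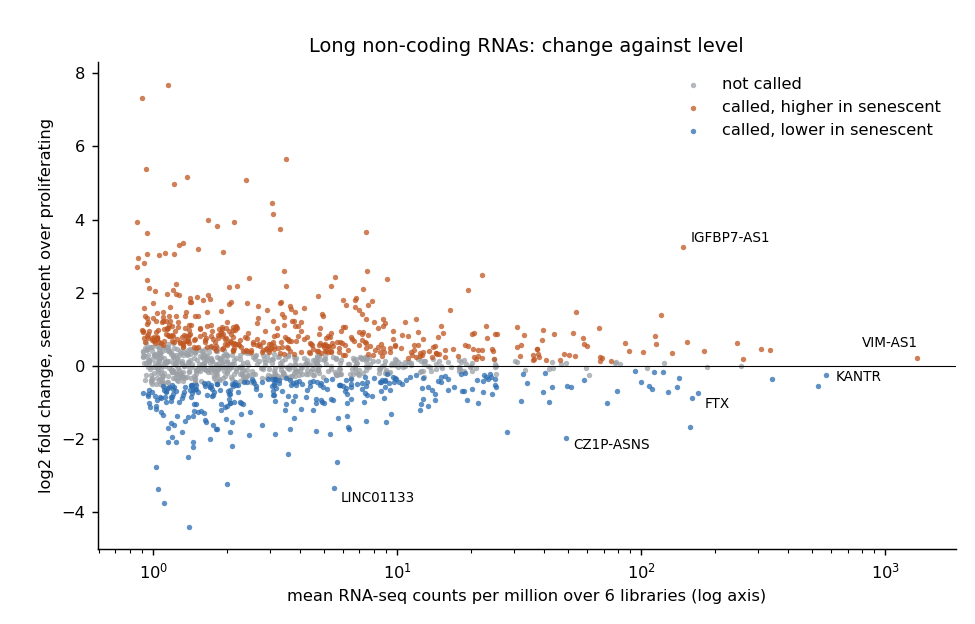
Each point is a tested member: the horizontal axis gives its mean RNA-seq CPM over the 6 libraries on a log axis, and the vertical axis its log2 fold change, senescent over proliferating. Orange and blue points passed an adjusted p of 0.15, and grey points did not. The largest changes lie at the low end of the level axis, while IGFBP7-AS1 reaches 3.25 at a mean of 148 CPM.

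Members of every class were called, in both directions. Among antisense members 108 were higher and 83 lower of 340 tested, among LOC loci 234 and 138 of 646, and among LINC loci 45 and 25 of 132. Over all symbols tested, 35.4% were called higher and 36.5% lower, or 71.8% in either direction. The share called in each of these classes lay below that 71.8%. The readthrough loci had 15 higher and 17 lower of 48 (66.7%), and the divergent transcripts 12 higher and 7 lower of 28 (67.9%). Of the 15 microRNA host genes 6 were higher and 5 lower (73.3%). Among the 214 tested members without coding exon overlap 87 were higher and 43 lower (60.7%, against 71.8% of all symbols). Their median log2 fold change was 0.19. Calls were also made where no exon is shared with a coding gene, although the gene spans of such members can still overlap one.

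**Figure D2:**
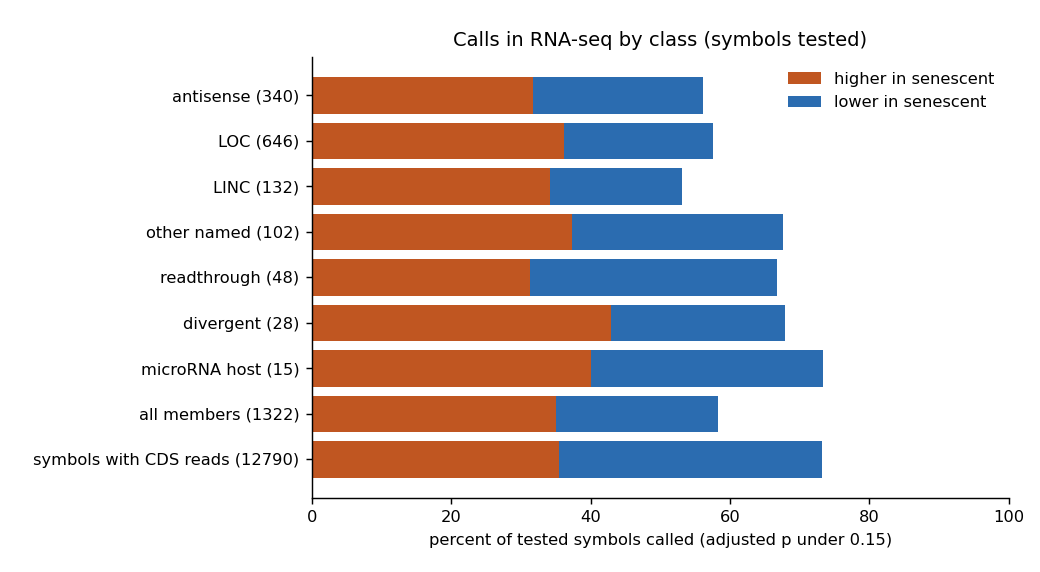
Stacked bars give, for each class, the percent of tested symbols called higher (orange) or lower (blue) in senescent cells, with the number tested in brackets. The classes of members shown reach between 53% and 73.3%, and the symbols with CDS reads reach 73.3%.

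The highest fold changes belonged to members with almost no reads in proliferating cells. LINC00484 held 0, 0 and 0 reads in the proliferating and 23, 43 and 16 in the senescent libraries, which is at least 6.39-fold higher when each proliferating library is set to the limit that a count of 0 allows, 3 reads. LOC105374715 also held no read in proliferating cells and 13, 25 and 25 in senescent ones, at least 4.98-fold higher. Both passed the filter on low counts through the senescent libraries alone, so these values are a description. LOC112267916 held 0, 3 and 1 reads against 52, 108 and 85. The other 7 of the 10 highest fold changes, all LOC loci, were LOC102725051, LOC105376878 (now RUNX3-AS1 in RefSeq), LOC102723769, LOC105379271, LOC105376567, LOC100506175 (now RIPOR3-AS1) and LOC105378026. Their senescent levels ran from 1.65 to 6.37 CPM and their proliferating levels from 0 to 0.60 CPM, so each rests on few reads. LOC112267916 and these 7 also passed the filter on low counts through the senescent libraries alone, so their values are a description too. Being called without overlap was a condition for being named.

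The 10 lowest fold changes included 4 named members. LINC01133, chr1:159927825-159954540 on GRCh37, a LINC locus whose RefSeq span overlaps the coding gene SLAMF9, was at 11.4, 10.8 and 7.85 CPM in proliferating and 0.93, 0.93 and 1.08 CPM in senescent cells. Its mean was 10.0 ± 1.90 CPM (SD, n = 3) in proliferating and 0.98 ± 0.08 CPM (SD, n = 3) in senescent cells (log2 fold change -3.33 ± 0.22, adjusted p = 1.1e-10), and none of its GENCODE exons overlaps a coding exon. MIR155HG, the host of miR-155, a microRNA of inflammatory signalling, held 20, 20 and 18 reads in the proliferating and 2, 2 and 2 in the senescent libraries (log2 fold change -3.36 ± 0.41, adjusted p = 5.5e-07). HOXA-AS3, in the HOXA cluster, was at 7.08, 6.07 and 5.08 CPM in proliferating and 0.52, 1.5 and 1.17 CPM in senescent cells (log2 fold change -2.42 ± 0.25, adjusted p = 7.2e-08). PCOLCE-AS1, antisense to the gene of a collagen-processing enhancer, was at 9.0, 10.0 and 9.98 CPM in proliferating and 2.18, 0.93 and 1.79 CPM in senescent cells (log2 fold change -2.63 ± 0.21, adjusted p = 1.4e-09). Groups that do not overlap were a condition for being named here. HOXA-AS3 and PCOLCE-AS1 share 39.1% and 50.4% of their exonic bases with coding exons. The other 6 were LOC112267883, LOC105379152 (now PRDM6-AS1), LOC101927267 (now TROAP-AS1), LOC105378936, LOC399975 and LOC107987392, at 1.56 to 4.44 CPM in proliferating and at most 0.64 CPM in senescent cells. These 6 and MIR155HG passed the filter on low counts through the proliferating libraries alone, so their values are a description. HOXA-AS3 reached the filter level in all 3 proliferating but not all 3 senescent libraries, so its values are a description too.

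Larger fold changes at higher read counts were seen in members that the naming rule did not pick and that are named here after their values were seen. IGFBP7-AS1, opposite the gene of a secreted insulin-like growth factor binding protein, was at 23.8, 28.7 and 31.6 CPM in proliferating and 268, 238 and 300.2 CPM in senescent cells. Its log2 fold change was 3.25 ± 0.10 (SE), and that of IGFBP7 itself was 2.98. It shares an exon with IGFBP7, with 2.51% of its exonic bases in coding exons, and held 7.93% of the RNA-seq reads of IGFBP7. In Ribo-seq IGFBP7-AS1 held 1 read and IGFBP7 10236. Where they share exons, the RNA-seq reads of the 2 cannot be told apart. LNCOG, without coding exon overlap at chr12:76653616-76699749, was at 9.36, 6.58 and 6.74 CPM in proliferating and 31.2, 35.1 and 27.4 CPM in senescent cells (log2 fold change 2.08 ± 0.13, adjusted p = 6.9e-11). ABALON, within the BCL2L1 gene of an anti-apoptotic protein, was at 28.3, 31.3 and 26.4 CPM in proliferating and 78.4, 79.6 and 80.4 CPM in senescent cells (log2 fold change 1.47 ± 0.08, adjusted p = 8.1e-12), and 91.2% of its exonic bases lie in BCL2L1 exons. In the other direction, LINC00987, at chr12:9392599-9413646 and without coding exon overlap, was at 249, 233 and 243 CPM in proliferating and 79.7, 75.5 and 72.2 CPM in senescent cells (log2 fold change -1.67 ± 0.07, adjusted p = 1.8e-13). All of these stood apart between the states in every library.

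Most of the abundant members moved by less. KANTR, transcribed next to KDM5C, was at 638, 623 and 615 CPM in proliferating and 517, 504 and 545 CPM in senescent cells (log2 fold change -0.26 ± 0.07, adjusted p = 0.0023). MGC4859 was at 420.2, 375 and 365 CPM in proliferating and 313, 292 and 296 CPM in senescent cells (log2 fold change -0.36 ± 0.07, adjusted p = 0.00021). Both were lower in senescent cells, without overlap of the libraries. NORAD, a cytoplasmic RNA that binds PUMILIO proteins, was at 219, 229.8 and 279 CPM in proliferating and 276, 272 and 288 CPM in senescent cells (log2 fold change 0.20 ± 0.08, adjusted p = 0.041). Its groups overlapped, and it was not called without proliferating replicate 1 (adjusted p = 0.198) or 2 (0.178). Over the alternative settings the adjusted p of NORAD reached 0.249. VIM-AS1 had log2 fold change 0.22 ± 0.10 beside 0.11 for VIM and was not called without proliferating replicate 1, senescent replicate 1 or senescent replicate 3 (adjusted p from 0.176 to 0.284). LOC107985976 ran from 114 to 236 CPM in the proliferating and 226 to 410 CPM in the senescent libraries (log2 fold change 0.62 ± 0.20, adjusted p = 0.011), again with overlap, and DESeq2 did not call it (adjusted p = 0.16). Per kilobase of GENCODE exon, mean levels over the 6 libraries were 110 CPM for MGC4859, 57.8 for KANTR, 48.3 for NORAD, 18.3 for TUG1, 5.84 for MALAT1 and 4.65 for NEAT1. TALAM1 held from 82.5% to 107% of the RNA-seq reads of MALAT1, and how far this bears on the level of MALAT1 was not tested.

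Of 8 members on a list of nuclear RNAs, on which the mainly cytoplasmic NORAD also stands, 2 were called higher, 1 lower and 5 not, against 71.8% of all symbols called. MALAT1, a nuclear speckle RNA, was at 40.6, 77.9 and 79.3 CPM in proliferating and 51.6, 65.4 and 50.6 CPM in senescent cells (log2 fold change -0.25 ± 0.16, adjusted p = 0.19), and NEAT1, the scaffold of paraspeckles, at 86.4, 101 and 136 CPM in proliferating and 103, 111 and 98.1 CPM in senescent cells (log2 fold change -0.05 ± 0.11, adjusted p = 0.7). Neither passed the test, and the single libraries of each state overlapped. MALAT1 did pass, as lower, without proliferating replicate 1 (-0.48, adjusted p = 0.00036) or senescent replicate 2 (-0.38, adjusted p = 0.072), with library totals (0.070) and when a single read sufficed for testing (0.0091), so its result depends on these choices. NEAT1 passed as lower without proliferating replicate 1 (-0.18, adjusted p = 0.14). MEG3 (log2 fold change 0.07 ± 0.08, adjusted p = 0.46), TUG1 (log2 fold change -0.04 ± 0.07, adjusted p = 0.6) and JPX (log2 fold change -0.21 ± 0.18, adjusted p = 0.32) also did not pass, although TUG1 was called lower, at -0.13, when libraries were scaled to their totals (adjusted p = 0.091) and JPX, at -0.33, without proliferating replicate 3 (0.14). FTX, from the X-inactivation centre, was at 209.8, 219 and 210.5 CPM in proliferating and 126, 140.0 and 115 CPM in senescent cells and lower in senescent cells (log2 fold change -0.75 ± 0.08, adjusted p = 5.8e-08). Its lowest proliferating library lay well above its highest senescent library. NORAD and KCNQ1OT1 were the members called higher.

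The mRNAs of the proteins that build paraspeckles with NEAT1 were tested from a list of 18. All 18 were called lower in senescent cells, against 36.5% of all symbols, with a median log2 fold change of -0.70. SFPQ, a core paraspeckle protein, fell by 1.13 and NONO, its partner, by 0.40 on the log2 scale. Of 11 subunits of polycomb repressive complex 2, which several nuclear RNAs have been reported to bind, 7 were lower and 2 higher, against 36.5% and 35.4% of all symbols. The methyltransferase EZH2 fell by 1.79 on the log2 scale, while its paralogue EZH1 was higher by 0.68. A difference between NEAT1 and these mRNAs was not tested.

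Of 10 members tied to p53, growth arrest or the INK4 locus, 4 were called higher and 6 not, against 35.4% of all symbols called higher and 71.8% called. MIR31HG, the host of miR-31 and an RNA that has been reported to act on the INK4 locus in senescence, was at 6.24, 6.16 and 4.16 CPM in proliferating and 10.1, 10.7 and 12.6 CPM in senescent cells (log2 fold change 1.02 ± 0.16, adjusted p = 1.3e-05). LINC-PINT, a p53-induced transcript, was at 9.72, 8.18 and 7.39 CPM in proliferating and 14, 16.5 and 17.1 CPM in senescent cells (log2 fold change 0.93 ± 0.13, adjusted p = 3.5e-06). Both stood apart between the states, with every senescent library above every proliferating one. PANDAR, which lies beside CDKN1A, and MIR22HG, a microRNA host, were called with log2 fold changes of 0.19 and 0.15 at adjusted p = 0.13 and 0.14. PANDAR lost the call without proliferating replicate 1 or 2 or senescent replicate 1 or 2 (adjusted p from 0.21 to 0.45), and MIR22HG without proliferating replicate 1 or 3 or senescent replicate 2 (0.18 to 0.45); scaling to library totals or a test with DESeq2 also ended both calls. CDKN2B-AS1 at the INK4 locus (log2 fold change -0.23 ± 0.30, adjusted p = 0.53), MIR34AHG, the host of a p53-induced microRNA (log2 fold change -0.12 ± 0.21, adjusted p = 0.64), TP53TG1, PVT1, LINC00467 and NEAT1 did not pass. Leaving out a library brought in some of them: PVT1 was called higher without proliferating replicate 1 (adjusted p = 0.058) or senescent replicate 1 (0.11) and under other scalings (0.13 to 0.14), TP53TG1 higher without senescent replicate 3 (0.091), and LINC00467 lower without senescent replicate 2 (0.13).

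Of 14 members tied to proliferation or tumour growth, 7 were called higher and 5 lower, against 35.4% and 36.5% of all symbols. CYTOR was at 91.2, 83.0 and 72.2 CPM in proliferating and 149.7, 159 and 125 CPM in senescent cells (log2 fold change 0.82 ± 0.09, adjusted p = 2.6e-07), and MIR4435-2HG at 126, 125 and 109 CPM in proliferating and 194, 205 and 168 CPM in senescent cells (log2 fold change 0.66 ± 0.08, adjusted p = 1e-06). These loci are near copies: besides the shared promoter run, 64.7% of the 25-base words in GENCODE transcripts of CYTOR also occur in MIR4435-2HG, and 33.4% the other way, so reads can fall on either and their separate levels are uncertain. LUCAT1, a stress-induced RNA, held 3, 3 and 6 reads against 15, 20 and 22 (log2 fold change 2.05 ± 0.36, adjusted p = 6.2e-05). LUCAT1 passed the filter on low counts through the senescent libraries alone, so its values are a description. OIP5-AS1, HCG18, MINCR and NORAD were also higher. NORAD and MINCR overlapped between the states and the others did not.

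The 5 called lower were FENDRR, TMPO-AS1, DLEU2, DLEU1 and DANCR. FENDRR, a lung mesenchyme RNA transcribed away from FOXF1, was at 170.4, 169 and 163 CPM in proliferating and 110.3, 116 and 113 CPM in senescent cells (log2 fold change -0.57 ± 0.07, adjusted p = 4.6e-07). TMPO-AS1, opposite a gene of the nuclear lamina, was at 9.36, 12.5 and 11 CPM in proliferating and 4.35, 3.37 and 4.13 CPM in senescent cells (log2 fold change -1.5 ± 0.16, adjusted p = 8.9e-08), next to a fall of TMPO itself by 1.79 on the log2 scale. DLEU2, the host of miR-15a and miR-16-1, was at 2.40, 2.70 and 2.96 CPM in proliferating and 1.24, 0.93 and 1.61 CPM in senescent cells (log2 fold change -1.12 ± 0.25, adjusted p = 0.00073). The groups stood apart for all of these but DLEU1, whose libraries overlapped.

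**Figure D3:**
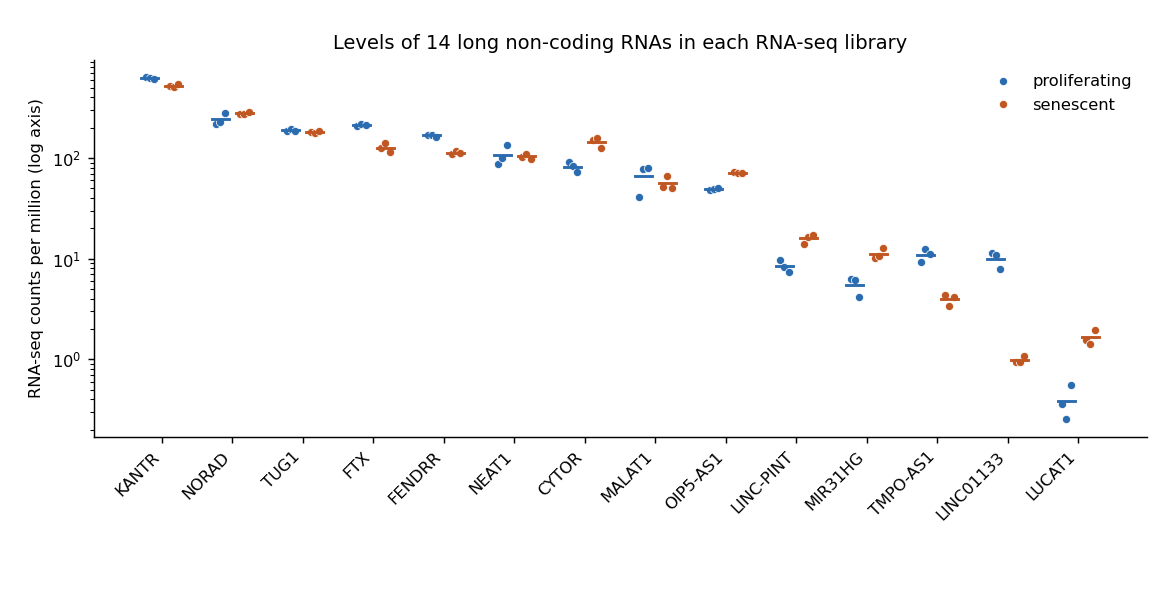
RNA-seq CPM of 14 members on a log axis, with a point for each of the 3 proliferating (blue) and 3 senescent (orange) libraries and a bar at their mean. CYTOR, OIP5-AS1, LINC-PINT, MIR31HG and LUCAT1 lie higher and KANTR, FTX, FENDRR, TMPO-AS1 and LINC01133 lower in the senescent libraries, while NORAD, TUG1, NEAT1 and MALAT1 overlap.

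Among 12 members tied to inflammation, hypoxia or stress, 5 were higher and 3 lower, against 35.4% and 36.5% of all symbols. MIR210HG, the host of the hypoxia microRNA miR-210, was at 3.72, 4.05 and 2.96 CPM in proliferating and 10.4, 11 and 9.69 CPM in senescent cells (log2 fold change 1.54 ± 0.16, adjusted p = 5.2e-08), and LINC01094 at 0.84, 1.69 and 1.85 CPM in proliferating and 2.38, 3.01 and 2.78 CPM in senescent cells (log2 fold change 0.86 ± 0.26, adjusted p = 0.0064). Neither overlapped between the states. LUCAT1 was higher as given above, and HIF1A-AS1 and HIF1A-AS2 were called higher with overlapping libraries (log2 fold changes 0.49 and 0.29). HIF1A-AS1 was not called without senescent replicate 3 (adjusted p = 0.152), nor HIF1A-AS2 without proliferating replicate 1 or 2 or senescent replicate 2 or 3 (0.18 to 0.36). MIR155HG, LINC00968 (log2 fold change -1.52 ± 0.28, adjusted p = 0.0001) and MIR503HG, the host of a cell cycle microRNA (log2 fold change -0.48 ± 0.18, adjusted p = 0.026), were lower. MIR155HG and LINC00968 passed the filter on low counts through the proliferating libraries alone, and LUCAT1 through the senescent ones. LINC01094 reached the filter level in all 3 senescent but not all 3 proliferating libraries. The values of these members are a description. NKILA, which acts on NF-κB, had log2 fold change 0.47 ± 0.29, adjusted p = 0.17 and was not called, except without proliferating replicate 2 (0.13) or senescent replicate 2 (0.11) or 3 (0.10). Of the others not called, MIR100HG passed as higher and GABPB1-AS1 as lower without senescent replicate 3 (adjusted p = 0.044 and 0.081).

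Of 8 imprinted members, 5 were called higher and 3 were not called, against 35.4% of all symbols called higher and 71.8% called. KCNQ1OT1, which silences neighbouring imprinted genes, was at 31.1, 32.8 and 33.2 CPM in proliferating and 40.4, 41.2 and 37 CPM in senescent cells (log2 fold change 0.29 ± 0.08, adjusted p = 0.005), and MEG8 at 5.76, 6.07 and 5.45 CPM in proliferating and 8.30, 10.3 and 8.43 CPM in senescent cells (log2 fold change 0.66 ± 0.15, adjusted p = 0.0006). MEG3, from the same cluster as MEG8, was at 73.0, 75.3 and 80.8 CPM in proliferating and 72.5, 88.7 and 79.2 CPM in senescent cells and MEG9 at 1.20, 1.26 and 1.11 CPM in proliferating and 0.62, 1.07 and 1.35 CPM in senescent cells; neither was called. From the Prader-Willi region, PWAR6 (log2 fold change 0.75 ± 0.23, adjusted p = 0.0073), PWAR5 (log2 fold change 0.61 ± 0.30, adjusted p = 0.082) and IPW (log2 fold change 0.29 ± 0.12, adjusted p = 0.046) were called higher and PWARSN was not. IPW lost the call without proliferating replicate 2 or senescent replicate 2 (adjusted p = 0.23 and 0.20), and PWAR5 without proliferating replicate 1 or senescent replicate 3 (0.32 and 0.28). H19 held 6 RNA-seq reads in all and was not a member.

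In the HOX clusters 3 of 5 members were lower, 1 higher and 1 not called, against 36.5% of all symbols lower and 35.4% higher. HOXA-AS3, HOXA-AS2 (log2 fold change -0.71 ± 0.30, adjusted p = 0.053) and HOTAIRM1 (log2 fold change -0.38 ± 0.19, adjusted p = 0.086) were lower; they are transcribed within the cluster of homeobox genes that record position along the body axis, and HOXB-AS1 (log2 fold change 0.07 ± 0.28, adjusted p = 0.83) was not called. HOTAIRM1 lost the call without proliferating replicate 3 or senescent replicate 1 or 3 (adjusted p from 0.18 to 0.32). HOXA-AS2 lost it without senescent replicate 3 (0.19), and over the alternative settings its adjusted p reached 0.21. HOXA-AS3 and HOXA-AS2 reached the filter level in all 3 proliferating but not all 3 senescent libraries, so their values are a description. HOXB-AS3, for which a small peptide has been reported, was higher, at 17.3, 15.8 and 14.9 CPM in proliferating and 21.8, 25.3 and 22.4 CPM in senescent cells (log2 fold change 0.55 ± 0.10, adjusted p = 0.00012). HOTAIR and HAGLR held no read in any RNA-seq library and were not members. LINC00346, the other member of the list of possible small-protein genes, was lower (log2 fold change -0.92 ± 0.17, adjusted p = 9.2e-05).

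Antisense members were set beside the coding gene whose name they carry in 301 pairs where both were tested. The log2 fold changes had the same sign in 196 pairs (65.1%), with Pearson's r of 0.61 and Spearman's rho of 0.46 across pairs, which share libraries and, for 231 of them, exons. Where both were called, 104 of 134 pairs had the same sign. In the 231 pairs that share exons 153 had the same sign (66.2%), and in the 27 without coding exon overlap 18 did (66.7%). ACTA2-AS1 had log2 fold change 0.44 beside 0.44 for ACTA2, the smooth muscle actin gene, MIF-AS1 0.46 beside 0.47 for MIF, and PINK1-AS 1.40 beside 1.56 for PINK1, a mitochondrial kinase gene. In all of these, the antisense symbol held from 35.6% to 73.4% of the partner's RNA-seq reads, and its Ribo-seq reads were 0, 0 and 10 against 6205, 3142 and 617 of the partners.

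Some pairs went apart, and these are named after their values were seen. OIP5-AS1 was higher by 0.53 while OIP5, a centromere gene, fell by 1.83 on the log2 scale. SPAG5-AS1 was higher by 0.52 while SPAG5, a mitotic spindle gene, fell by 2.0. TAPT1-AS1, with no exon in a coding exon, fell by 0.45 while TAPT1 was higher by 0.89. In these pairs the antisense level did not follow its partner, although the first 2 share exon bases with it.

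**Figure D4:**
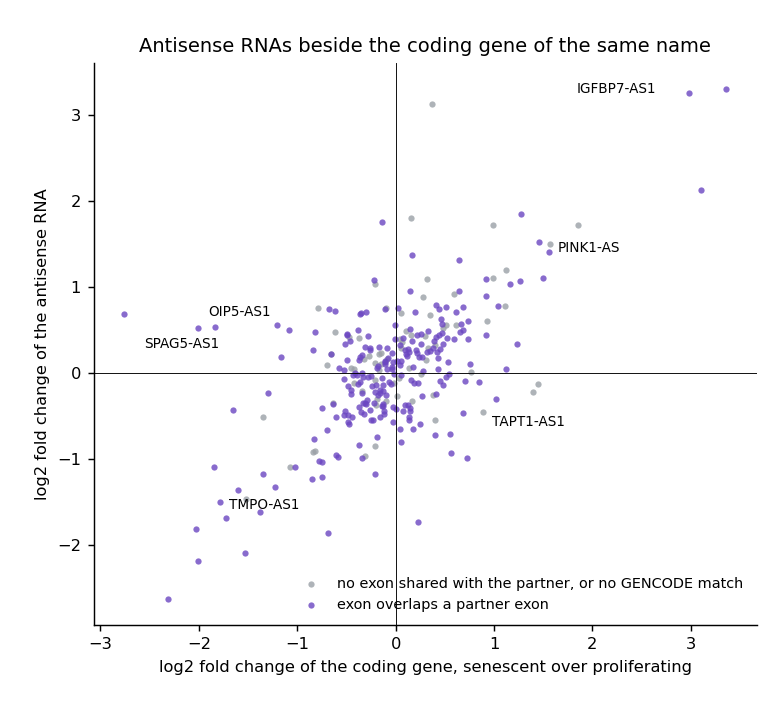
Each point is a pair, with the log2 fold change of the coding gene on the horizontal and that of the antisense RNA on the vertical axis, both senescent over proliferating. Purple points share an exon with the partner by GENCODE. Most pairs (196 of 301) lie to the lower left or upper right of the zero lines, and OIP5-AS1, SPAG5-AS1 and TAPT1-AS1 lie outside them.

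The readthrough loci were compared with the coding genes in their names, in 72 pairs over 47 loci. The sign was the same in 58 pairs, and in 37 of the 39 pairs where both were called. SENP3-EIF4A1 was at 652, 629 and 621 CPM in proliferating and 432, 453 and 404 CPM in senescent cells (log2 fold change -0.56 ± 0.07, adjusted p = 8e-07), beside a fall of 0.60 for EIF4A1, the gene of a translation initiation helicase. SENP3 had a log2 fold change of 0.07 (adjusted p = 0.46). CZ1P-ASNS was at 79.7, 79.6 and 75.9 CPM in proliferating and 18.5, 22.6 and 17.9 CPM in senescent cells (log2 fold change -1.98 ± 0.09, adjusted p = 5.2e-13), beside a fall of 2.10 for ASNS, the asparagine synthetase gene. ATP6V1G2-DDX39B was lower by a like amount to DDX39B (-1.03 and -1.04). The values of these readthrough symbols lay close to those of a component gene, and the reads of the 2 cannot be told apart.

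In Ribo-seq the members were sparse. Of 1341, 482 held no read in any of the 6 libraries and 222 held at least 10 reads in all. Pooled over libraries, and with both library types scaled to their coding reads, the median ratio of Ribo-seq to RNA-seq reads was 0.808 for coding symbols and 0.931 for readthrough loci. It was 0.227 for LINC loci, 0.201 for microRNA hosts, 0.163 for the other named RNAs, 0.101 for antisense members and 0.0365 for LOC loci. RNA-seq reads of an antisense member can come from a coding gene that shares its exons, while Ribo-seq reads of VIM-AS1 and TALAM1 were almost absent. The antisense ratios are therefore not measured like those of members without shared exons, and how far this bears on them was not tested. The median of the readthrough loci thus lay above that of the coding symbols and those of the 5 classes just named below it. Members of other classes share exons with coding genes too, and for LOC loci, which had no GENCODE match, this is not known. Apart from readthrough loci and small ribonucleoprotein RNAs, medians were 0.0963 with coding exon overlap, 0.185 without and 0.0593 for members unmatched in GENCODE. Among single members, the ratio was 0.555 for CYTOR, 0.218 for TUG1, 0.180 for FENDRR, 0.0607 for NORAD, 0.0065 for KANTR and 0.0061 for FTX. MALAT1, although it is a nuclear RNA, reached 1.37. TALAM1 held 82.5% to 107% of the reads of MALAT1 in RNA-seq but 0 in Ribo-seq. The ratio of MALAT1 may therefore not compare like with like, which was not tested.

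Of the 7 small ribonucleoprotein RNAs, 3 had far more reads in Ribo-seq than in RNA-seq. RPPH1, the RNA of ribonuclease P, held 29699 Ribo-seq reads and at most 19 reads in any RNA-seq library, RMRP, the RNA of ribonuclease MRP, 9482 Ribo-seq reads, and RN7SK, which holds a transcription elongation factor inactive, 4970.5. These RNAs form folded particles and lack a poly(A) tail. In RNA-seq, 6 of the 7 were tested: BCYRN1 was called higher (log2 fold change 0.27), a call lost without proliferating replicate 1 or 3 or senescent replicate 1 or 2 (adjusted p from 0.18 to 0.39), and RN7SK lower (-0.63), a call lost without proliferating replicate 3 or senescent replicate 2 or 3 (0.21 to 0.68). The 7 together held 44235 of the 64319 Ribo-seq reads of the members. In proliferating replicate 1, a shallow library, all other members held 406.5 of 5163 reads, and in senescent replicate 2, the other shallow one, 417.5 of 4254.

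**Figure D5:**
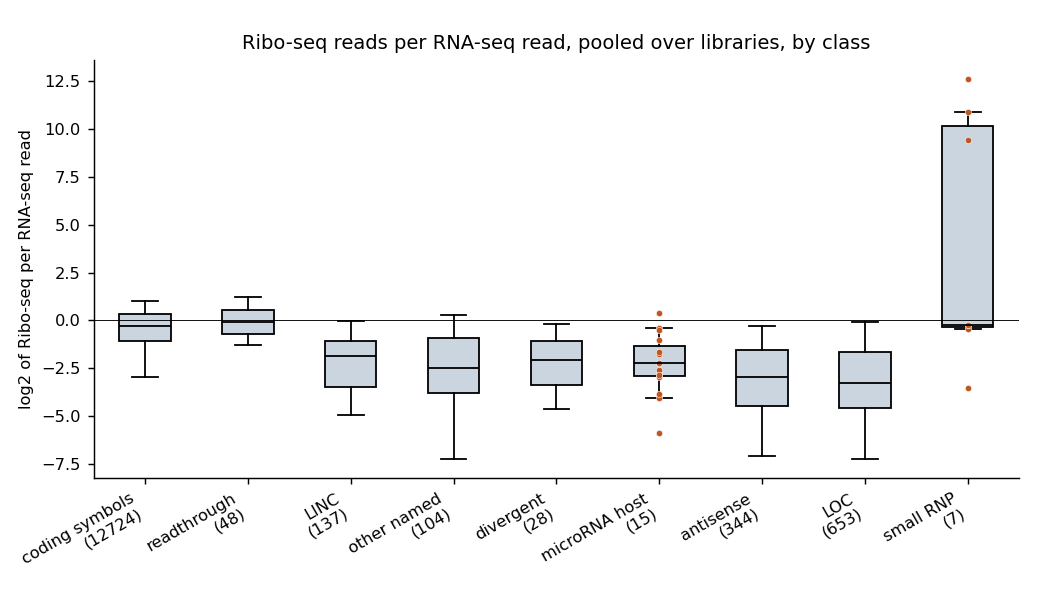
Boxes give the log2 of Ribo-seq reads per RNA-seq read, pooled over the 6 libraries of each type and scaled to coding reads with 0.5 added, for coding symbols and each class; boxes span the quartiles, whiskers the 5th to 95th percentiles, and points show single members in classes under 20. The boxes of readthrough loci and coding symbols overlap, the medians of the other long classes lie below 0, and RPPH1 and RMRP lie above 10. Coding symbols have CDS reads alone in Ribo-seq but CDS and UTR reads in RNA-seq, unlike the members.

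For Ribo-seq, 45 members had enough reads to be tested between the states. Of these 17 were called, 6 higher and 11 lower (37.8%), against 43.6% of all 7326 symbols, of which 22.5% were higher and 21.1% lower. Of the 17, 10 were readthrough loci. With libraries scaled to their totals in place of TMM factors, 3 were called, 0 higher and 3 lower (9 at an unadjusted p under 0.05), and DESeq2 called 2, both lower. CZ1P-ASNS held 8, 126 and 319 Ribo-seq reads in proliferating and 57, 3 and 28 in senescent cells, or 77.7, 107 and 110.5 against 21.9, 31.9 and 31.2 CPM (log2 fold change -2.03 ± 0.22, adjusted p = 9.2e-05). LOC107986383 was at 19.4, 29.8 and 18.4 against 2.31, 0 and 4.45 CPM (-2.95 ± 0.44, adjusted p = 0.00071) and in RNA-seq at 50.5, 41.1 and 39.9 CPM in proliferating and 13.4, 13.9 and 10.2 CPM in senescent cells. These were the 2 members called in each of the 6 leave-out fits, and their groups did not overlap in either library type. The other 15 lost the call in at least 1 of them.

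TUG1 was called higher in Ribo-seq. It held 5, 23 and 45 reads in proliferating and 83, 4 and 36 in senescent cells, or 48.6, 19.6 and 15.6 against 31.9, 42.6 and 40.1 CPM. The value of the shallow proliferating replicate 1, which rests on 5 reads, lay above all others, so the groups overlapped. The Ribo-seq reads were higher by edgeR (log2 fold change 0.95 ± 0.28, adjusted p = 0.026), and so was the ratio to RNA-seq reads (1.01 ± 0.27, adjusted p = 0.022), while the RNA level was not called. The Ribo-seq call was lost without proliferating replicate 2 (adjusted p = 0.16) or 3 (0.33), and DESeq2 did not make it (0.44). The ratio call was lost without proliferating replicate 2 (0.16) or 3 (0.43) or senescent replicate 3 (0.19). FENDRR was called lower in Ribo-seq as well (-1.13 ± 0.37, adjusted p = 0.038), on 0, 29 and 58 against 25, 2 and 7 reads, and lost that call without proliferating replicate 2 or senescent replicate 1 or 3 (adjusted p from 0.16 to 0.26). In CPM its Ribo-seq levels overlapped between the states, with 0 reads in the shallow proliferating replicate 1.

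The ratio of Ribo-seq to RNA-seq reads was tested for 44 members, and 8 were called (18.2%), 4 higher and 4 lower, against 9.63% of all 7146 symbols, of which 6.09% were higher and 3.54% lower. With libraries scaled to their totals the split was 2 higher and 6 lower. Higher were TUG1, HLA-F-AS1, RN7SK and ZNF436-AS1, and lower MIR4435-2HG, SLMO2-ATP5E, BCYRN1 and SERF2-C15ORF63. BCYRN1, a short brain cytoplasmic RNA that resembles Alu repeats, held 20, 19 and 25 Ribo-seq reads in proliferating and 6, 2 and 1 in senescent cells (ratio -3.17, adjusted p = 0.0048), and without the first senescent lysate the adjusted p was 0.33. Its 2 reads in senescent replicate 2 came from a shallow library, and in CPM its Ribo-seq levels overlapped between the states. In SERF2-C15ORF63 the RNA level was higher by 0.35 and the Ribo-seq level fell by 0.56 on the log2 scale (ratio -0.86, adjusted p = 0.010), and the ratio was not called without proliferating replicate 2 (0.37) or senescent replicate 1 (0.16) or 3 (0.17). The value of RN7SK was 2.65, and without senescent replicate 2, a shallow library, it was -0.0047. No ratio call held in all 6 fits that left out a lysate, and DESeq2 called 0 of these members (3 at an unadjusted p under 0.05), against 8 by edgeR.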

How the data were processed

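RNA-seq and Ribo-seq were measured in 3 proliferating and 3 senescent IMR90 samples, grouped by the condition in the labels. The deposited files hold expected counts per gene symbol, split by the authors into read classes (CDS, UTR, non-coding and others); many are fractions, because reads were shared between symbols. The submitters' processing notes name cutadapt 1.18, Bowtie 1.0.1, SAMtools 1.8 and DESeq2 1.22.2; the genome build, annotation and use of strand are not given in the sources used here. File names of the proliferating RNA-seq libraries carry a tag that the labels do not explain.

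For members and other symbols without CDS reads the non-coding and long intergenic columns were summed, for coding symbols the CDS and both UTR columns (RNA-seq) or the CDS alone (Ribo-seq), and sums were rounded. Symbols were filtered with filterByExpr, scaled with TMM factors and tested with edgeR 4.0.16 (R 4.3.3) by the quasi-likelihood test, senescent against proliferating, fitted over all symbols with Benjamini-Hochberg adjustment and the study's threshold of 0.15. The ratio was tested as an interaction of state and library type with the lysate as a block, since both libraries of a lysate share it. Standard errors are those of the log2 fold change, with 3 libraries a state. Intervals and floors (3 counts) cover counting error only. Alternatives were DESeq2 1.42.0, other scalings, filters, columns and member rules, a replicate block, and leaving out each replicate. On simulated RNA-seq counts for 14220 genes, 56 of 67 genes changed 1.5-fold and 66 of 67 changed 2-fold were recovered; on simulated Ribo-seq counts for 7326 genes, 10 of 67 and 46 of 67 were.

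Named genes are the 10 highest and 10 lowest log2 fold changes among called members whose CPM did not overlap, the 10 with the most RNA-seq reads, the 10 with the most Ribo-seq reads and the members on the gene lists; others are said to be chosen after their values were seen. The members and lists were chosen with earlier results of these data known. Members were matched by symbol to RefSeq (GRCh38.p14) for spans and promoters and to GENCODE (GRCh37) for exons; LOC symbols had no GENCODE match.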

Additional observations from a re-analysis of the deposited data

How the results depend on the processing

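The count of 770 members called in RNA-seq stayed between 532 and 777 under the other scalings, filters, columns, the stricter threshold and DESeq2 (605), and between 683 and 747 when single replicates were left out. It was 324 of the members with 300 or more reads and 130 of those without coding exon overlap, because fewer members enter. Of the 770, 537 were called in the same direction in all 6 fits without 1 replicate, and 364 under every setting. Scaling to library totals moved the median log2 fold change of all symbols in RNA-seq from -0.01 to -0.10, and the calls to 51.6% higher; in Ribo-seq the median moved from 0.01 to -0.51, and the 3 calls made there are relative to that shift. The Ribo-seq count of 17 became 3 with library totals, 2 with DESeq2, 88 when a single read sufficed for testing, 1 when each library had to hold 10 counts, 38 without both shallow libraries and 8 at an adjusted p of 0.05. Without single replicates it ranged from 7 to 28 (28 without proliferating replicate 1, 7 without 2, 8 without 3, and 10 without senescent replicate 1). The ratio count of 8 became 0 with DESeq2 (3 at an unadjusted p under 0.05), 19 when a single read sufficed, 0 when each library had to hold 10 counts (0 at an unadjusted p under 0.05), 3 with all read classes summed and 4 at an adjusted p of 0.05. Without single lysates it ranged from 2 to 16 (16 without proliferating replicate 1, 2 without 2, and 4 without senescent replicate 3). The ratio of RN7SK ranged from -0.0047 without senescent replicate 2, where it was reversed, to 4.64 without proliferating replicate 1. For these the cause was not tested. The shallow Ribo-seq libraries hold 54420.5 and 54708 CDS reads, and the ratio was not fitted without both of them.

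Samples with the same replicate number did not deviate together (correlations from -0.073 to 0.0783 in RNA-seq and from -0.0549 to 0.115 in Ribo-seq), so the numbers give no pairing of the states. With a replicate block the counts were 771 in RNA-seq and 6 in Ribo-seq, and without the lysate as a block the ratio count was 7.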
